A study of Mus musculus with 2 samples.

Results

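The mast cell proteases and IgE receptor genes comprised 9 of the 27998 genes of the count matrices: Cma1, Mcpt4, Tpsb2, Tpsab1, Cpa3, Kit, Fcer1a, Ms4a2 and Hdc. They were chosen by name, and each symbol occurred once. Mast cells were the cells with at least 10 unique molecular identifiers (UMIs, 1 for each captured RNA molecule) of Cma1, Tpsb2 and Mcpt4 together, which gave 233 of 11443 cells in WT_LW and 532 of 13206 cells in TLR9agonist_LW. These shares were 2.04% (95% exact interval 1.79 to 2.31) and 4.03% (3.70 to 4.38). Both libraries held dorsal skin of C57BL/6J mice of wild-type (WT) genotype, males aged 6 to 8 weeks, healed from a circular wound of 1.8 cm. WT_LW received PBS and TLR9agonist_LW received ODN2395, a CpG oligonucleotide that activates Toll-like receptor 9 (TLR9), on days 0, 3 and 6, and skin was collected 2 days after scab detachment. Each group was a single 10x Genomics library of dissociated skin. The methods name several samples per group, and whether they were pooled is not stated, so that treatment, library and mice cannot be told apart. No test between the groups was possible, and every interval below covers counting error only.

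Mast cells reside in the dermis, mature there under stem cell factor acting on the receptor Kit, and store proteases and histamine in granules bound to heparin. Connective tissue mast cells of the mouse hold the chymases Cma1 and Mcpt4, the tryptases Tpsb2 and Tpsab1 and carboxypeptidase A3 (Cpa3), whereas mucosal mast cells hold Mcpt1 and Mcpt2. The high-affinity receptor for immunoglobulin E (IgE) consists of the binding chain Fcer1a, the signal-amplifying beta chain Ms4a2 and the shared gamma chain Fcer1g, and its crosslinking empties the granules. Hdc, histidine decarboxylase, is the enzyme that makes histamine. GATA factors, which bind the core GATA, and Mitf, which binds E-boxes, are known regulators of mast cell genes.

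Cma1 lay at chr14:55941451-55944675 on the minus strand and Mcpt4 at chr14:56059629-56062313 on the same strand, with the mucosal genes Mcpt1 and Mcpt2 between them (GENCODE vM21, GRCm38, joined by Ensembl identifier). The tryptase genes were also neighbours, Tpsab1 at chr17:25343245-25345562 (minus strand) and Tpsb2 at chr17:25366305-25369098 (plus strand). Cpa3 was at chr3:20215620-20242181, Fcer1a at chr1:173221284-173227214, Ms4a2 at chr19:11615523-11623719 and Hdc at chr2:126593667-126619299, all 4 on the minus strand, and Kit was at chr5:75574916-75656722 on the plus strand. All 9 are protein-coding, and a microRNA gene inside Cpa3, Mir7007, was the single overlap with another gene. The last 500 bases of the Tpsb2 and Tpsab1 transcripts shared no stretch of 50 bases, while 12.9% of such stretches of Mcpt4 also occurred in Cma2, so a small part of the Mcpt4 count is uncertain.

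A promoter sequence (RefSeq starts, GRCm38.p6, 250 bases before to 50 after the start) was matched for 7 of the 9 members, and Tpsb2 and Tpsab1 were without an entry. The letters AGATAA or TGATAA, searched on both strands, occurred in 4 of the 7 (Mcpt4, Cpa3, Fcer1a and Ms4a2), against 18.6% of all 32851 promoters. The E-box CATGTG occurred in 1 of the 7, Fcer1a, against 14.2% of all promoters. The 120 bases before the start of these 4 members and of Mcpt1 are shown 5′ to 3′, since these hold the letters, and Mcpt1 is the mucosal neighbour of Mcpt4. The 4 members with the letters were lower in TLR9agonist_LW. Of those whose promoters lacked them, Cma1 and Kit were also lower and Hdc was higher. Whether the letters bear on the direction was not tested. Capitals mark AGATAA or TGATAA, or TTATCT where the match is on the other strand.
Mcpt4 (chr14:56062311-56062430, minus strand): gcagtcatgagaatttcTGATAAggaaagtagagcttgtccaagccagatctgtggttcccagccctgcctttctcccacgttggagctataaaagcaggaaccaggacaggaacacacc
Mcpt1 (chr14:56017844-56017963, plus strand): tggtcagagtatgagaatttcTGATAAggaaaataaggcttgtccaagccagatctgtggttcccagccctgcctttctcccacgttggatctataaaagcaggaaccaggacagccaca
Cpa3 (chr3:20242182-20242301, minus strand): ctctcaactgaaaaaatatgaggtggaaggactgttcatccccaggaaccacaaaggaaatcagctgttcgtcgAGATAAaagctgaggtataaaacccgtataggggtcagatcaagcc
Fcer1a (chr1:173227230-173227349, minus strand): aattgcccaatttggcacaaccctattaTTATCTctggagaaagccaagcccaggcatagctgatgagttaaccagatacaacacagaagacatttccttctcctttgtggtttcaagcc
Ms4a2 (chr19:11623720-11623839, minus strand): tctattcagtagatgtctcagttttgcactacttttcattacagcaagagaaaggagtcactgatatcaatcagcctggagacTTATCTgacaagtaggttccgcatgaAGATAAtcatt
The match began 103 bases before the start in Mcpt4 and 99 bases in Mcpt1. In Cpa3 it began 46 bases before the start, in Fcer1a 92 bases, and Ms4a2 had matches at 37 and 11 bases with another at 224 bases outside the printed stretch. These matches are a description of the sequence, and no binding was measured.

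The WT_LW library held 99374045 UMIs in 12800 barcodes and the TLR9agonist_LW library 132339022 UMIs in 13751 barcodes, and 47 barcodes occurred in both, 1 of them a mast cell in each library. The mast cells held 940034 and 2340321 UMIs, with medians of 2422 and 2009.5 UMIs per cell. Markers of mast cells that the gate did not use were found in both libraries, 6 of 6. Gata2, a lineage transcription factor, was at 496 counts per 1000000 UMIs (CPM) in mast cells of WT_LW and 383 in TLR9agonist_LW, against 5.31 and 3.62 in the other gated cells. Mrgprb2, the receptor for basic secretagogues of connective tissue mast cells, was at 216 and 126 against 0.307 and 0.227. Of the melanocyte markers, which mark another Kit-positive cell of skin, none of 5 had a UMI in mast cells of TLR9agonist_LW and 2 of 5 had 1 in WT_LW.

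Some gated cells carried a second identity. The gate of another cell type was passed by 50 mast cells of WT_LW (21.5%, with 29.5% of the mast cell UMIs) and by 87 of TLR9agonist_LW (16.4%, with 41.0% of the UMIs), and their median depth was 3263 and 6432 UMIs. The summed level of 6 keratinocyte markers in mast cells was 2161 CPM (95% Poisson interval 2068 to 2257) in WT_LW and 5349 (5256 to 5444) in TLR9agonist_LW, with all 6 detected in both. That of 4 fibroblast markers was 765 (710 to 823) and 1899 (1844 to 1956). Without the cells of a second identity the keratinocyte sum was 764 and 2800 and the fibroblast sum 312 and 1395. RNA of these cells adds to the total by which the members are divided, and its part in the differences below was not tested, so the log2 ratio of each member is given also without these cells and with equal weight for each cell.

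The chymases were the most abundant members, but they chose the cells, and their levels are a description. Cma1, the mouse ortholog of human chymase, was at 22347 CPM (22046 to 22651) in mast cells of WT_LW and 7684 (7572 to 7797) in TLR9agonist_LW. Mcpt4, the beta-chymase that performs most chymotrypsin-like cleavage in mouse skin, was at 17669 (17401 to 17939) and 8776 (8656 to 8897). The log2 ratio of TLR9agonist_LW over WT_LW was -1.54 for Cma1 (-1.57 to -1.51) and -1.01 for Mcpt4 (-1.04 to -0.98). When mast cells were gated instead on at least 5 UMIs of Cpa3, Fcer1a and Ms4a2, 205 and 454 cells passed and the log2 ratios were -1.46 and -0.95. Without cells passing another gate they were -1.39 and -0.80. With each cell weighted equally they were -0.74 and -0.33, so both chymases stayed lower in TLR9agonist_LW but were then within 2-fold.

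Cma1 and Mcpt4 differed in how far they were lower. WT_LW held 1.26 UMIs of Cma1 for each UMI of Mcpt4 (1.24 to 1.29), and TLR9agonist_LW held 0.876 (0.858 to 0.893). Cma1 was thus the leading chymase in 1 library and Mcpt4 in the other, a comparison that does not depend on the total UMIs. Among 3115 T cells of WT_LW and 3349 of TLR9agonist_LW, where a few UMIs of each were found, the ratio was 1.03 (0.881 to 1.20) and 0.913 (0.769 to 1.08). It was below 1 in both libraries in fibroblasts (0.822 and 0.782), keratinocytes (0.865 and 0.697) and macrophages (0.799 and 0.833).

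Tryptases can be released as tetramers with heparin, but only RNA was measured, and whether either gene gave protein in these mice was not tested. Tpsb2 (mast cell protease 6), which also served in the gate, was at 5851 CPM (5697 to 6008) in mast cells of WT_LW and 2481 (2417 to 2546) in TLR9agonist_LW. Tpsab1 (mast cell protease 7), which did not, was at 1535 (1457 to 1616) and 788 (752 to 825), a log2 ratio of -0.96 (-1.06 to -0.86). Tpsab1 was found in 174 of 233 and 386 of 532 mast cells, shares of 74.7% and 72.6%, and after thinning to equal depth, described below, in 73.7% (66.4 to 80.1) and 64.9% (59.8 to 69.8), intervals that overlapped. The log2 ratio of Tpsab1 was -0.74 without cells passing another gate and -0.26 with equal weight per cell, and that of Tpsb2 was -1.24 in the sums, -0.96 without those cells and -0.59 with equal weight. Tpsb2 outnumbered Tpsab1 in both libraries, 3.81 to 1 (3.60 to 4.04) in WT_LW and 3.15 to 1 (2.99 to 3.32) in TLR9agonist_LW.

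Cpa3, the carboxypeptidase that trims peptides and venom toxins in the granule, was the most abundant member outside the gate. It was at 9617 CPM (9419 to 9817) in mast cells of WT_LW and 3225 (3153 to 3299) in TLR9agonist_LW, and the intervals lay far apart. The log2 ratio was -1.58 (-1.62 to -1.53), -1.40 without cells passing another gate and -0.79 with equal weight per cell. Nearly every mast cell held Cpa3, 98.3% in WT_LW and 98.9% in TLR9agonist_LW, against 4.85% and 3.11% of T cells, whose median depth was 4356 and 4629 UMIs. When each cell of at least 1500 UMIs was thinned to 1500 UMIs (171 and 362 cells, leaving out 62 and 170 shallower ones), the mean was 15.3 UMIs of Cpa3 per cell in WT_LW and 8.21 in TLR9agonist_LW. The lower level of Cpa3 was therefore present at equal depth.

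**Figure D1:**
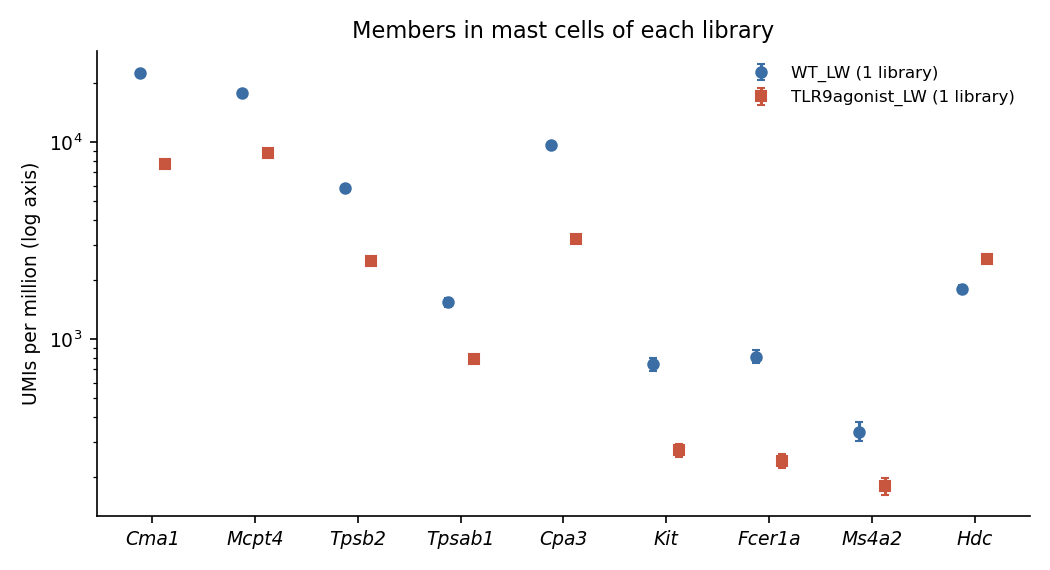
Level of each member in mast cells, in CPM on a log axis, for the single library of WT_LW (circles, 233 cells) and of TLR9agonist_LW (squares, 532 cells), with 95% Poisson intervals that cover counting error only. Of the 9 members, 8 were lower in TLR9agonist_LW and Hdc alone was higher, at 2558 against 1788.

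Kit, the receptor tyrosine kinase for stem cell factor, was at 744 CPM (689 to 801) in mast cells of WT_LW and 273 (252 to 295) in TLR9agonist_LW. The log2 ratio was -1.45 (-1.60 to -1.29), -1.15 without cells passing another gate and -0.84 with equal weight per cell. A UMI of Kit was found in 74.2% of the mast cells of WT_LW (68.1 to 79.7) and 57.3% of those of TLR9agonist_LW (53.0 to 61.6), and after thinning in 57.9% (50.1 to 65.4) and 44.2% (39.0 to 49.5). Kit was thus lower in level and in the share of cells in which it was detected.

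The chains of the IgE receptor differed in size. Fcer1a, the chain that holds IgE, was at 814 CPM (757 to 874) in mast cells of WT_LW and 241 (222 to 262) in TLR9agonist_LW, the largest difference among the 9 members in these sums, with a log2 ratio of -1.76 (-1.92 to -1.60). Ms4a2, the beta chain, was at 338 (302 to 378) and 179 (162 to 197), a log2 ratio of -0.92 (-1.13 to -0.70). WT_LW held 2.41 UMIs of Fcer1a for each UMI of Ms4a2 (2.11 to 2.75) and TLR9agonist_LW held 1.35 (1.18 to 1.53). Part of that gap lay in a few cells, since the log2 ratio of Fcer1a was -1.47 without the cells that held Mcpt1 and Mcpt2 described below, and it was -0.70 with equal weight per cell, against -0.31 for Ms4a2. Under either alternative Fcer1a no longer differed most among the members lower in TLR9agonist_LW. Without cells passing another gate the log2 ratio was -1.49 for Fcer1a and -0.73 for Ms4a2. After thinning, Fcer1a was found in 52.0% of mast cells of WT_LW (44.3 to 59.7) and 36.2% of TLR9agonist_LW (31.2 to 41.4), and Ms4a2 in 43.3% (35.7 to 51.1) and 32.9% (28.1 to 38.0). T cells held Fcer1a in 0.385% and 0.239% of cells.

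Hdc went the other way. It was at 1788 CPM (1704 to 1876) in mast cells of WT_LW and 2558 (2494 to 2624) in TLR9agonist_LW, a log2 ratio of 0.52 (0.44 to 0.60). The ratio was 0.75 without cells passing another gate and 1.20 with equal weight per cell, so that Hdc was at least 2-fold higher only under the latter kind of weighting and in the gate that required 1% of the UMIs, where it was 1.24. Hdc was detected in 86.7% of mast cells of WT_LW (81.6 to 90.8) and 95.7% of TLR9agonist_LW (93.6 to 97.2), and after thinning the mean was 3.11 and 6.53 UMIs per cell. The median mast cell held 13.6 UMIs of Hdc per 10000 in WT_LW and 39.7 in TLR9agonist_LW, the one member with a higher median in the latter. The direction was not particular to mast cells. At far lower levels Hdc was also higher in T cells (log2 ratio 0.55, 0.21 to 0.90), fibroblasts (1.29), dendritic cells (1.23), Schwann cells (1.14) and keratinocytes (0.88). In macrophages, blood endothelial cells and pericytes the interval included 0. Whether free RNA gave these low levels was not tested.

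**Figure D2:**
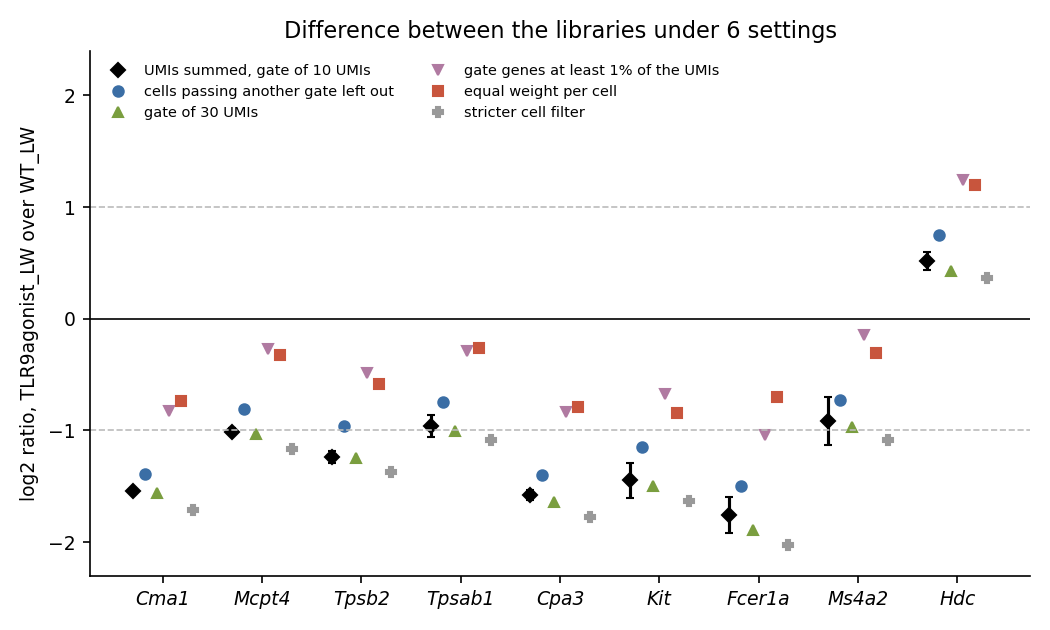
The log2 ratio of TLR9agonist_LW over WT_LW for each member in mast cells under 6 settings, with the interval of counting error drawn for the sums over all gated cells and dashed lines at 2-fold. In all 6 settings 8 members lay below 0 and Hdc above, but the size changed, for Cpa3 from -1.78 under the stricter cell filter to -0.79 with equal weight per cell.

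Of the 6 members that did not choose the cells, 3 were at least 2-fold lower in TLR9agonist_LW (Cpa3, Kit and Fcer1a), against 6.78% of the 5985 genes with at least 50 UMIs in mast cells, and none was at least 2-fold higher, against 9.76%. Of the 6, 5 lay below 0, as did 57.8% of all genes. Their median log2 ratio was -1.20, and that of all genes with a UMI in both libraries was -0.11. The count was not stable. With equal weight per cell no member was 2-fold lower and Hdc was 2-fold higher, and the median was -0.51.

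The share of each member among the UMIs of all 9, which other RNA in a cell does not dilute, separated the members further. Hdc made up 2.95% of the member UMIs in WT_LW (2.81 to 3.09) and 9.76% in TLR9agonist_LW (9.53 to 10.0). Cma1 made up 36.8% (36.4 to 37.2) and 29.3% (29.0 to 29.7), and Cpa3 15.8% (15.5 to 16.1) and 12.3% (12.1 to 12.6). Mcpt4 took a larger share in TLR9agonist_LW, 33.5% (33.1 to 33.9) against 29.1% (28.7 to 29.5), whereas the intervals for Tpsb2, 9.64% (9.40 to 9.88) and 9.47% (9.24 to 9.70), overlapped. For each UMI of Cpa3, WT_LW held 0.186 UMIs of Hdc (0.176 to 0.196) and TLR9agonist_LW 0.793 (0.767 to 0.821). The mast cells of TLR9agonist_LW thus held relatively more RNA of the histamine-forming enzyme and relatively less of Cma1, Cpa3 and Fcer1a, and the Hdc share lay between 9.10% and 9.80% there and between 2.84% and 3.13% in WT_LW in the 3 subsets tried. Averaged over cells with equal weight, the share of Hdc was 4.32% and 12.4%, that of Cma1 32.2% and 27.5% and that of Cpa3 15.9% and 12.8%, while Fcer1a was at 1.16% and 1.08%, a log2 ratio of -0.10, so that its smaller share did not extend to the average cell.

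**Figure D3:**
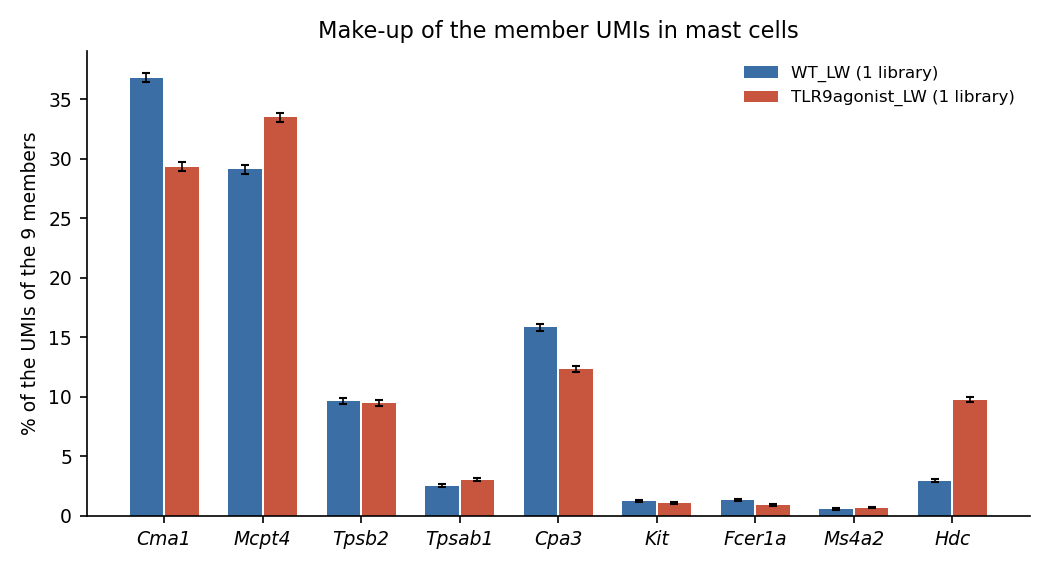
Share of each member among the UMIs of the 9 members in mast cells, in percent, for the single library of each group, with 95% exact intervals. Hdc stood at 2.95% in WT_LW and 9.76% in TLR9agonist_LW, Cma1 at 36.8% and 29.3%.

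The members varied widely from cell to cell within each library. The middle 80% of mast cells of WT_LW held between 12.1 and 194 UMIs of Cpa3 per 10000, and those of TLR9agonist_LW between 7.47 and 112. For Mcpt4 the ranges were 32.7 to 383 and 24.1 to 276, and for Hdc they began at 0 in WT_LW and reached 51.2, and ran from 3.72 to 107 in TLR9agonist_LW. The ranges overlapped for every member, so that the libraries differed in the position of broad distributions. The median cell had no UMI of Fcer1a or Ms4a2 in TLR9agonist_LW, and 3.42 and 1.85 per 10000 in WT_LW.

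**Figure D4:**
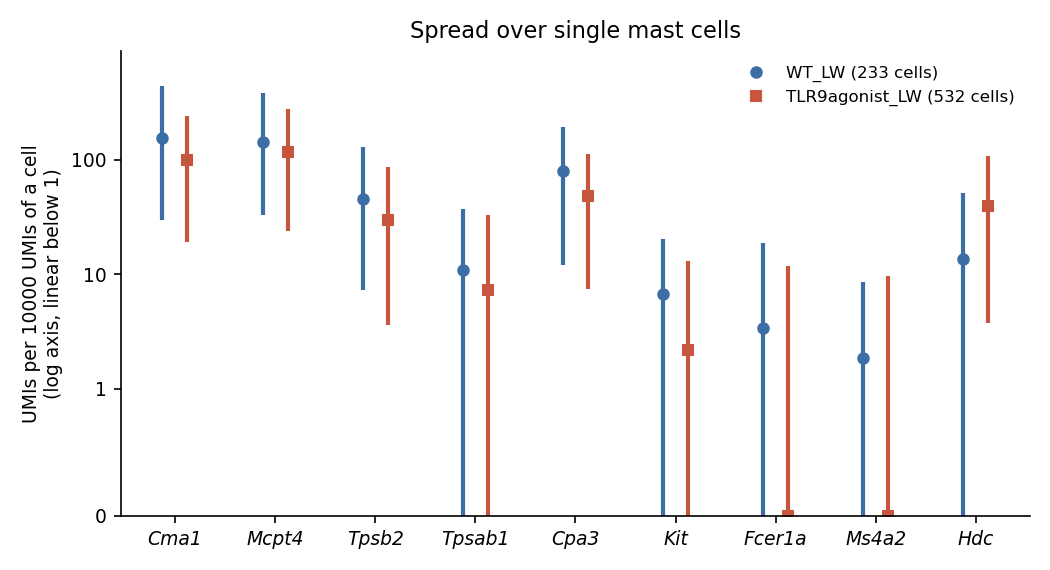
UMIs of each member per 10000 UMIs of a cell, on an axis that is logarithmic above 1 and linear below, for the 233 mast cells of WT_LW and the 532 of TLR9agonist_LW, with the median cell as a point and the range from the 10th to the 90th percentile as a line. The lines overlapped for all 9 members, and the median was lower in TLR9agonist_LW for 8 of them and higher for Hdc.

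Outside mast cells the members fell into 2 kinds. In each library the 6 members outside the gate were all at least 10-fold higher in mast cells than in the other gated cells as a whole, against 3.21% of the genes with at least 50 UMIs in mast cells of WT_LW and 2.34% in TLR9agonist_LW. Cpa3 was 1394-fold higher (1275 to 1526) in WT_LW and 898-fold (810 to 998) in TLR9agonist_LW, and Fcer1a 1326-fold and 578-fold. Mast cells held between 84.4% and 93.3% of all UMIs of Tpsab1, Cpa3, Fcer1a and Ms4a2 in either library, although they were at most 4.03% of the cells. Kit and Hdc were the exceptions. Mast cells held 27.5% of the Kit UMIs in WT_LW and 27.9% in TLR9agonist_LW, and 61.0% and 70.4% of the Hdc UMIs.

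Basophils, the blood counterpart of mast cells, shared part of the programme. Only 10 and 12 cells passed the basophil gate, with 28916 and 74819 UMIs in all. Hdc was at 6017 CPM there in WT_LW (5157 to 6981) and 5720 in TLR9agonist_LW (5191 to 6289), above its level in mast cells in both libraries, and the difference between the libraries was within counting error (log2 ratio -0.07, -0.33 to 0.19). Fcer1a was at 311 (142 to 591) and 227 (132 to 364) and Ms4a2 at 311 (142 to 591) and 241 (143 to 380), so that the intervals of basophils and mast cells overlapped for both chains in TLR9agonist_LW. In WT_LW they overlapped for Ms4a2, but Fcer1a was lower in basophils than in mast cells. Cpa3 was lower than in mast cells, 380 (190 to 681) and 174 (92.5 to 297). Kit was at 0 UMIs in WT_LW, which allows a level of up to 104 CPM (3 UMIs), and 1 UMI was found in TLR9agonist_LW. The gate of basophils was also passed by 4 and 6 of the mast cells.

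Hdc was found in neutrophils too. The 46 neutrophils of WT_LW held 81 UMIs of Hdc, 484 CPM (384 to 601), and the 155 of TLR9agonist_LW held 552, 1341 CPM (1232 to 1458). The log2 ratio was 1.47 (1.13 to 1.83), an interval that lay above that of the mast cells in the sums (0.44 to 0.60). With equal weight per cell the mast cell ratio was 1.20. No neutrophil ratio with equal weight was computed, so the 2 types can be compared in the sums only. Hdc was detected in 54.3% and 85.8% of the neutrophils at median depths of 2608 and 2480 UMIs. Neutrophils held few UMIs of the other members, 9 and 12 of Mcpt4, 5 and 6 of Cma1, 3 and 0 of Cpa3, and at most 1 of Kit, Fcer1a or Ms4a2 in a library, whereas in mast cells Cpa3 and Mcpt4 outnumbered Hdc in both libraries.

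Kit marked several other cells. Melanocytes, which need Kit to survive, had the highest level, but there was 1 cell with 4 UMIs in WT_LW and 4 cells with 22 UMIs in TLR9agonist_LW, 1134 CPM in the latter (711 to 1717). Natural killer cells were at 106 (68.6 to 156) in WT_LW and 245 (150 to 379) in TLR9agonist_LW, from 48 and 17 cells. Blood endothelial cells, with many more UMIs, were at 98.5 (90.4 to 107) and 107 (97.8 to 117), a log2 ratio of 0.12 (-0.06 to 0.30). Dendritic cells were at 44.9 and 52.4 and Langerhans cells at 37.6 and 53.3, and neither differed between the libraries beyond counting error. Kit was thus not lower in endothelial, dendritic or Langerhans cells of TLR9agonist_LW, as it was in mast cells. At low levels it was also lower in macrophages (log2 ratio -1.04, -2.01 to -0.16) and fibroblasts (-0.77, -1.41 to -0.11). In natural killer cells (1.21, 0.29 to 2.12) and T cells (0.26, 0.02 to 0.50) it was higher.

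The proteases were low in every other type with many cells. Cma1 lay between 9.50 and 20.7 CPM in T cells, macrophages, dendritic cells, fibroblasts, keratinocytes, blood endothelial cells, pericytes and Schwann cells of WT_LW and between 5.53 and 14.7 in those of TLR9agonist_LW. Levels of this size cannot be told apart from free RNA taken up into droplets. Since cells with 10 or more UMIs of Cma1, Tpsb2 and Mcpt4 were called mast cells, the low levels of these 3 elsewhere follow in part from the gate.

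**Figure D5:**
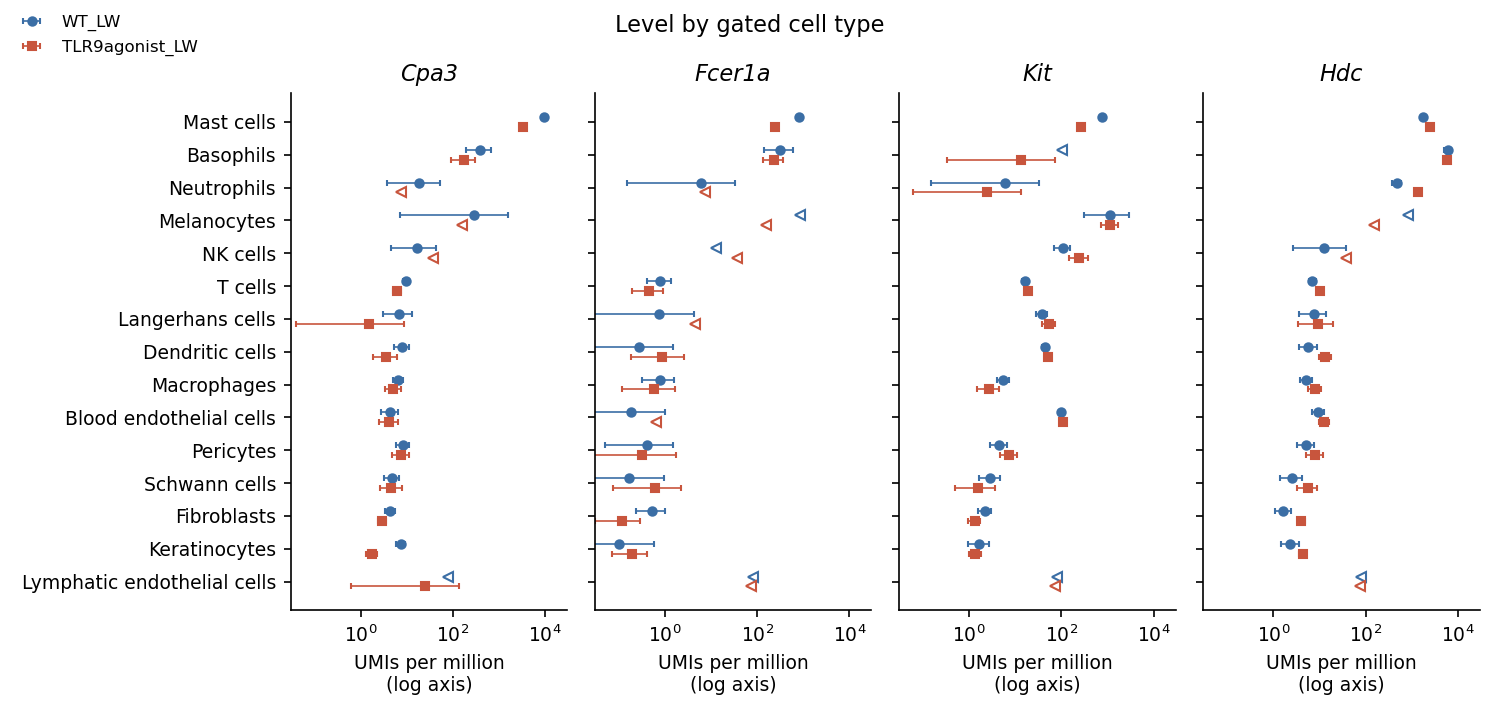
Level of Cpa3, Fcer1a, Kit and Hdc in 15 gated cell types, in CPM on a log axis, for WT_LW (circles) and TLR9agonist_LW (squares) with 95% Poisson intervals, and open triangles at the level of 3 UMIs where none was found. Hdc was highest in basophils, Kit was also found in melanocytes, natural killer, endothelial, dendritic and Langerhans cells, and Cpa3 and Fcer1a were highest in mast cells, followed by basophils.

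The mucosal proteases, which are no members but neighbours of Cma1 and Mcpt4, differed far more than any member. Mcpt1 had 2288 UMIs in mast cells of WT_LW and 24 in TLR9agonist_LW, and Mcpt2 had 2386 and 49. Nearly all of them lay in 20 of the 233 mast cells of WT_LW (8.58%, 5.32 to 12.9) with at least 10 UMIs of both together, against 1 of 532 (0.188%, 0.00476 to 1.04) in TLR9agonist_LW. These 20 cells also held Cma1 at 25454 CPM, Mcpt4 at 16689 and Cpa3 at 9961, against 21379, 17974 and 9510 in the rest, and Fcer1a at 1294 (1149 to 1452) against 664 (606 to 727). Since all of these cells had passed the gate on Cma1, Tpsb2 and Mcpt4, cells with the mucosal proteases alone were not covered. Whether these cells came from 1 mouse was not tested. Leaving them out moved the log2 ratio of Cpa3 to -1.56 and of Cma1 to -1.48.

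The other genes of the IgE receptor pathway did not move as one. Of 14 genes, 13 had at least 20 UMIs, and 2 of these were at least 2-fold lower and 3 at least 2-fold higher in TLR9agonist_LW, against 10.2% and 10.4% of all 9012 genes with at least 20 UMIs, with a median log2 ratio of -0.29, which was 0.47 without cells passing another gate. The lowest were Fcer1g, the gamma chain that Fcer1a needs to reach the surface, at 2118 and 963 CPM (log2 ratio -1.14, -1.23 to -1.05), and Plcg1, a phospholipase, at -1.12. The highest were Gab2, an adaptor, at 1.99 (0.94 to 3.25) from 8 and 79 UMIs, and Fyn, the kinase that phosphorylates it, at 70.2 and 217 CPM (1.63, 1.26 to 2.02). All 3 chains of the receptor were thus lower, while Lyn and Syk, its proximal kinases, were at 0.70 (0.38 to 1.04) and 0.65 (0.15 to 1.18).

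Genes of the granule were mixed. Of 9 genes for granule matrix, amine storage and secretion, 2 were at least 2-fold lower and none at least 2-fold higher, against the same 10.2% and 10.4%, with a median of -0.37 (-0.24 without cells passing another gate). Srgn, the core proteoglycan that holds the proteases, was at 3815 CPM in mast cells of WT_LW and 1666 in TLR9agonist_LW (log2 ratio -1.20, -1.26 to -1.13), and Ndst2, which sulfates heparin, had 76 and 13 UMIs (-3.86, -4.84 to -3.00). Rab27b, a secretion GTPase, was at 314 and 415 (0.40, 0.21 to 0.60) and Tph1, the enzyme of serotonin synthesis, at 347 and 427 (0.30, 0.12 to 0.49). The amine enzymes Hdc and Tph1 were thus both higher in TLR9agonist_LW, and Slc18a2, which loads histamine and serotonin into granules, was at -0.37 (-0.63 to -0.11) and at -0.07 (-0.35 to 0.22) without cells passing another gate. Of the other serine proteases 7 of 9 had at least 20 UMIs and 4 of these were 2-fold lower (against 10.2% of all genes), Mcpt1, Mcpt2, Mcpt8 and Ctsg, while Tpsg1, a membrane-bound tryptase, was at -0.19 (-0.45 to 0.08) and Cma2 at -0.56 (-1.43 to 0.34).

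Of 15 lineage factors and receptors 1 was 2-fold lower, Gata1 with 16 and 13 UMIs, and none was 2-fold higher, shares near or below those of all genes (10.2% and 10.4%), with a median of -0.34 (-0.18 without cells passing another gate), against -1.20 for the members outside the gate. Gata2 had a log2 ratio of -0.37 (-0.53 to -0.21) and Mitf of -0.58 (-0.94 to -0.21). The highest was Csf2rb, the shared receptor chain for interleukin 3 and GM-CSF, at 423 and 711 CPM (0.75, 0.59 to 0.91), followed by C3ar1 with 8 and 30 UMIs (0.59, -0.57 to 1.93). Mrgprb2 was among the lowest at -0.77 (-1.03 to -0.51).

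Eicosanoid genes were split as well, with 3 of 7 at least 2-fold lower and 1 at least 2-fold higher, against 10.2% and 10.4% of all genes, and a median of -0.94 (-0.41 without cells passing another gate). Alox5, the first enzyme of leukotriene synthesis, had 23 and 7 UMIs and Alox5ap, its partner, 249 and 271 UMIs, with log2 ratios of -3.03 (-4.50 to -1.76) and -1.19 (-1.45 to -0.94). Ptgs2, the inducible cyclooxygenase, stood higher, with 45.7 CPM in WT_LW against 179 in TLR9agonist_LW (1.97, 1.51 to 2.45), and Hpgds, a prostaglandin D synthase, was at -0.20 (-0.52 to 0.13). Ptgs2 was higher in TLR9agonist_LW while Alox5 and Alox5ap were lower. Whether RNA of other cells added to Ptgs2 in mast cells was not tested.

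Of 16 cytokine genes of mast cells 7 were at least 2-fold higher in TLR9agonist_LW and none 2-fold lower, against 10.4% and 10.2% of all genes, with a median of 0.24 (0.46 without cells passing another gate). Areg, an epidermal growth factor receptor ligand, was at 102 CPM in mast cells of WT_LW and 452 in TLR9agonist_LW (log2 ratio 2.14, 1.84 to 2.46), and Il6 at 129 and 454 (1.82, 1.55 to 2.10). Tnf was at -0.84 (-1.22 to -0.46) and Ccl2 at -0.71 (-0.78 to -0.63). Il4 and Il13, the type 2 cytokines, were at -0.16 (-0.42 to 0.09) and -0.45 (-0.77 to -0.12). Without cells passing another gate Areg was at 3.43 and Il6 at 1.99. Even without those cells the keratinocyte marker sum in mast cells was 764 CPM in WT_LW and 2800 in TLR9agonist_LW. Whether RNA of other cells added to Areg or Il6 in mast cells was not tested.

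Of the ligands that keep or activate mast cells, most had their highest level in another type. Kitl, stem cell factor, was highest in blood endothelial cells, at 273 CPM in WT_LW and 286 in TLR9agonist_LW. Il33, the alarmin that acts on Il1rl1 of mast cells, was at 99.3 CPM in WT_LW keratinocytes and 453 in TLR9agonist_LW ones, and at 32.5 and 97.4 in fibroblasts. Mast cells themselves had 1 and 257 UMIs of Il33, 109.8 CPM in TLR9agonist_LW. This was not particular to them, since Il33 was at 2.97 and 38.1 CPM in T cells and 2.03 and 68.0 in pericytes. Lymphatic endothelial cells, with 2 and 1 UMIs, went the other way. Whether Il33 in mast cells came from RNA of other cells was not tested. Mast cells were the one type with UMIs of Il3, 1 and 16. Tslp, another epithelial alarmin, was at 84.7 and 38.3 in keratinocytes but at 18.1 and 65.8 in pericytes and 21.7 and 48.5 in blood endothelial cells. Tlr9, the receptor of the agonist, had 2 UMIs in mast cells of WT_LW and 0 in TLR9agonist_LW, the latter allowing a level of up to 1.28 CPM (3 UMIs).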

How the data were processed

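The authors prepared single-cell libraries from skin, 1 per group in the files (pooling of mice is not stated), and deposited, per the labels and file headers, filtered matrices of raw UMI counts per gene and cell (Cell Ranger 4.0.0 in the headers, with fastp, Seurat and the build mm9 named in the submitters' processing notes). The deposited UMI counts are whole numbers and were used without normalization by the authors. Genes were named by the symbols in the matrices and joined by Ensembl identifier to GENCODE vM21 (GRCm38), so positions refer to that build and not to the authors' build.

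Cells with at least 500 UMIs, 300 genes and at most 15% mitochondrial UMIs were kept (11443 of 12800 and 13206 of 13751). UMIs were summed over the gated mast cells and expressed as counts per 1000000 UMIs (CPM), with exact Poisson intervals at 95%. Ratios between the libraries carry the exact conditional binomial interval, and shares the Clopper-Pearson interval. A 3′ UMI count does not scale with gene length. Other cell types were gated by summed markers, with thresholds set after seeing the data, and cells passing several gates or the mast cell gate were left out of them. No doublet caller was run, and mast cells passing another gate were kept and also left out as an alternative. With 1 library per group no test was made. Genes were called different past 2-fold. The members and lists were chosen with earlier results of these data known. All 9 members are named, and of each list the 2 highest and 2 lowest log2 ratios among genes with at least 20 UMIs in mast cells. Lyn, Syk, Slc18a2, Gata2, Mitf, Il1rl1, Il4, Il13, Mcpt8 and Ctsg were named after their values were seen. The ratio intervals were run on simulated Poisson counts, the same model that they assume. This checks the calculation only and does not cover differences between cells or mice. Alternatives were other gates, cell filters, scalings and weights. The scripts used scipy 1.17.1 for intervals, numpy 2.4.6, matplotlib 3.10.9 for plots, and pandas 2.3.3, under Python 3.11.15.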

Additional observations from a re-analysis of the deposited data

How the results depend on the processing

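All 9 log2 ratios kept their direction under every alternative run, 8 below 0 and Hdc above, but 70 of the 114 recomputed values lay outside the counting interval of the reported one. With a mast cell gate of at least 5 UMIs the log2 ratio was Cma1 -1.34, Mcpt4 -0.81, Tpsb2 -1.04, Tpsab1 -0.75, Cpa3 -1.38, Kit -1.25, Fcer1a -1.54 and Hdc 0.72. With a gate of at least 30 UMIs the log2 ratio was Cpa3 -1.64 and Hdc 0.43. Where the gate genes also made up at least 1% of the UMIs of a cell the log2 ratio was Cma1 -0.82, Mcpt4 -0.27, Tpsb2 -0.48, Tpsab1 -0.29, Cpa3 -0.84, Kit -0.67, Fcer1a -1.04, Ms4a2 -0.14 and Hdc 1.24. Without cells passing another gate the log2 ratio was Cma1 -1.39, Mcpt4 -0.80, Tpsb2 -0.96, Tpsab1 -0.74, Cpa3 -1.40, Kit -1.15, Fcer1a -1.49 and Hdc 0.75. With cells filtered at 1500 UMIs, 800 genes and a mitochondrial share of 8% the log2 ratio was Cma1 -1.71, Mcpt4 -1.17, Tpsb2 -1.38, Tpsab1 -1.08, Cpa3 -1.78, Kit -1.63, Fcer1a -2.03 and Hdc 0.37. Relative to the median gene the log2 ratio was Cma1 -1.43, Mcpt4 -0.90, Tpsb2 -1.13, Tpsab1 -0.85, Cpa3 -1.46 and Hdc 0.63. With equal weight per cell the log2 ratio was Cma1 -0.74, Mcpt4 -0.33, Tpsb2 -0.59, Tpsab1 -0.26, Cpa3 -0.79, Kit -0.84, Fcer1a -0.70, Ms4a2 -0.31 and Hdc 1.20. With the members left out of the total the log2 ratio was Cma1 -1.59, Mcpt4 -1.06 and Cpa3 -1.63. Without the cells holding Mcpt1 or Mcpt2 the log2 ratio was Cma1 -1.48 and Fcer1a -1.47. With equal weight and no cell passing another gate the log2 ratio was Cma1 -0.81, Mcpt4 -0.37, Tpsb2 -0.60, Tpsab1 -0.29, Cpa3 -0.85, Kit -0.88, Fcer1a -0.73, Ms4a2 -0.37 and Hdc 1.16. With a gate on 5 UMIs of Cpa3, Kit, Fcer1a, Ms4a2 and Hdc the log2 ratio was Cma1 -1.09, Mcpt4 -0.56 and Tpsb2 -0.78. With a gate on 5 UMIs of Cpa3, Fcer1a and Ms4a2 the log2 ratio was Cma1 -1.46, Mcpt4 -0.95 and Tpsb2 -1.15. The number of members outside the gate past 2-fold was 3 as reported, 1 (Hdc, higher) with equal weight per cell, with or without cells passing another gate, and 5 with the stricter cell filter. It was 4 with the gate of 30 UMIs and with the members left out of the total. With the 1% rule it was 2, Fcer1a lower and Hdc higher. Dropping the cell filter or the shared barcodes moved no ratio beyond counting error. The mast cell share was 2.39% and 4.21% with a gate of 5 UMIs, 1.48% and 2.85% with 30 UMIs, 1.74% and 3.32% with the 1% rule, 1.60% and 3.37% without cells passing another gate, 1.58% and 2.98% with the stricter filter and 2.78% and 5.35% with the gate on the 5 other members. The settings on Mcpt1 and Mcpt2, shared barcodes, combined weighting, the gate on 3 members, the mast cell share with the gate on 5 and subsets of the make-up were chosen after seeing the data. The cause of these shifts was not tested. Leaving out a replicate is impossible with 1 library per group. No paired analysis was possible because each group has a single library. Single mast cells of low depth (medians of 2422 and 2009.5 UMIs) limit Kit, Fcer1a and Ms4a2, of which many cells show none.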

Other observations

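Across the 28 profiles of gated types with at least 10 cells in either library, the genes whose log2 level was most like the mean of the 9 members were Krt4 (Pearson r = 0.901), Fndc8 (0.900), Atp8b5 (0.898), Mrgprx2 (0.897), Adora3 (0.894), 1700042O10Rik (0.893), Mrgprb2 (0.892), Tpsg1 (0.891), Dgki (0.887) and Rgs13 (0.881). These profiles share libraries and differ in depth, and the values are a description. Of the members, Cpa3 was at 0.914 and Kit lowest at 0.527. Krt4, a keratin of internal epithelia, was at 106 CPM in mast cells of WT_LW and 87.6 in TLR9agonist_LW, against 0.107 and 0.114 in the other gated cells, which included 542 and 1267 keratinocytes. Rgs13, a regulator of G protein signalling that limits mast cell degranulation, had 77 and 539 UMIs, 81.9 and 230.3 CPM, against 0.0667 and 0.227 elsewhere. Mrgprb1 was at 681 (629 to 736) and 725 (691 to 760) CPM. In the sums Mrgprb1 thus stood at a like level in both libraries while 8 of the 9 members were lower in TLR9agonist_LW. Other receptors of mast cells varied. Mrgprb2 (log2 ratio -0.77, -1.03 to -0.51) and Il1rl1 (-0.41, -0.57 to -0.26) were lower, Adora3 was at -0.15 (-0.41 to 0.12) and Csf2rb was higher at 0.75. Without cells passing another gate the log2 ratio of Mrgprb1 was 0.38 (0.23 to 0.52).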
